A study of Sus scrofa with 6 samples.

Results

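The genes described are those whose deposited protein description contains the word homeobox, leaving out the clustered HOX genes, in RNA from whole pig embryos. Of 20523 transcript rows with at least 1 read, 154 carried the word, 37 of these were HOX rows, and the remaining 117 rows, for 105 gene names, are the members. Apart from the minimum of 1 read, the rule used the description alone and no measured value. The embryos, of the Large White breed and taken 17.5 to 18 days post coitum, were 3 wild-type ones (WT, genotype qq) and 3 homozygous for the 2 quantitative trait nucleotides of VRTN (QQ). VRTN encodes vertnin, a protein known for its link with how many thoracic vertebrae a pig forms. The genotype of each embryo was read from its extra-embryonic tissue, and the labels give neither litter nor sex. A p-value here sets the difference between QQ and WT against the spread between the embryos of a group. An effect of litter or sex could not be told apart from one of genotype.

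A homeobox is the stretch of a gene that encodes the homeodomain, a fold of helices that binds DNA. Genes that carry it are transcription factors, and in an embryo many of them are active in restricted places, such as one brain region, one pharyngeal arch, the tail bud, the somites or the heart. Beside the HOX clusters they form classes that are told apart by the homeodomain itself and by the domains that accompany it, such as paired, POU, LIM, cut or zinc finger domains. At the age sampled here somites, from which vertebrae and muscle later arise, are being added at the tail end. In RNA from a whole embryo, a gene active in a small territory gives few reads, and fewer cells of a type cannot be told apart from less RNA per cell.

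The libraries held 12.2 to 13.5 times 1000000 uniquely mapped reads each. A level is given as RPKM, the reads scaled to transcript length in kilobases and to the library total, and 1 read in a transcript of 2000 bp is worth 0.0371 to 0.0410 RPKM. WT replicate 3 was unlike the rest: the leading principal component, with 57.7% of the variance, put it at -61.7, the other WT libraries at -9.13 and 1.00 and the QQ libraries at 10.95 to 29.99. VRTN, whose transcript has 3148 bp, gave no read in any WT library, which allows up to 0.223 to 0.240 counts per 1000000 reads (3 reads, counting error only), and 2, 0 and 1 reads in the QQ libraries, so its level does not check the genotype labels. Summed levels of marker genes also differed between embryos: 11 erythroid genes ran from 2153 to 7675 RPKM in WT and 295 to 3204 RPKM in QQ, and 8 endoderm genes from 33.3 to 238 RPKM in WT and 34.6 to 494 RPKM in QQ. The globins HBE1 and HBZ made most of the erythroid sum in every library. All 10 erythroid rows that could be tested had the lower level in QQ, none at an adjusted p under 0.05. Without AFP the endoderm sum ran from 26.1 to 106 RPKM in WT and 21.3 to 174 RPKM in QQ. The summed levels of 4 neural genes ran from 38.0 to 44.6 RPKM in WT and 29.6 to 45.7 RPKM in QQ. Their part in the results below was not tested.

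Homeobox genes were a small share of the RNA, and a few of them made up much of it. Their share of the reads was 0.115%, 0.116% and 0.106% in WT and 0.118%, 0.138% and 0.144% in QQ, in the order of replicates 1 to 3, as everywhere below. The lowest share was that of WT replicate 3 and the highest were those of QQ replicates 2 and 3. Of the 117 rows, 17 had a mean of at least 10 RPKM, 64 of at least 1 RPKM, and 53 lay under 1 RPKM. The 10 rows with the highest mean took 46.1% of all homeobox reads. Among them were MSX1, a row of MEIS2, TGIF1, MEIS3, CDX2, PRRX2, MEOX1, HOMEZ and ZHX1. They join genes of the limb buds and face (MSX1, PRRX2), HOX cofactors (MEIS2, MEIS3), a repressor of TGF beta signalling (TGIF1), and genes of the tail end (CDX2) and of the somites (MEOX1).

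MSX1, a factor of limb bud, facial and neural crest mesenchyme, had the highest level of all members and took 9.20% of the homeobox reads. It stood at 55.3, 57.5 and 70.0 RPKM in WT and 57.4, 76.3 and 100 RPKM in QQ. QQ replicate 3 was the highest and QQ replicate 1 lay among the WT values, so the groups overlapped. TGIF1 stood at 45.2, 43.4 and 48.9 RPKM in WT and 46.3, 50.9 and 49.7 RPKM in QQ, nearly level over all 6 embryos. MEIS3 had 36.3, 34.8 and 39.2 RPKM in WT and 34.0, 35.9 and 36.5 RPKM in QQ, and PRRX2 had 22.9, 22.1 and 26.7 RPKM in WT and 24.1, 22.7 and 26.8 RPKM in QQ. Both had their highest or nearly highest value in WT replicate 3, and in both the groups overlapped. Close levels were not separated: the ranges of the WT values of CDX2, PRRX2 and MEOX1 overlapped.

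**Figure D1:**
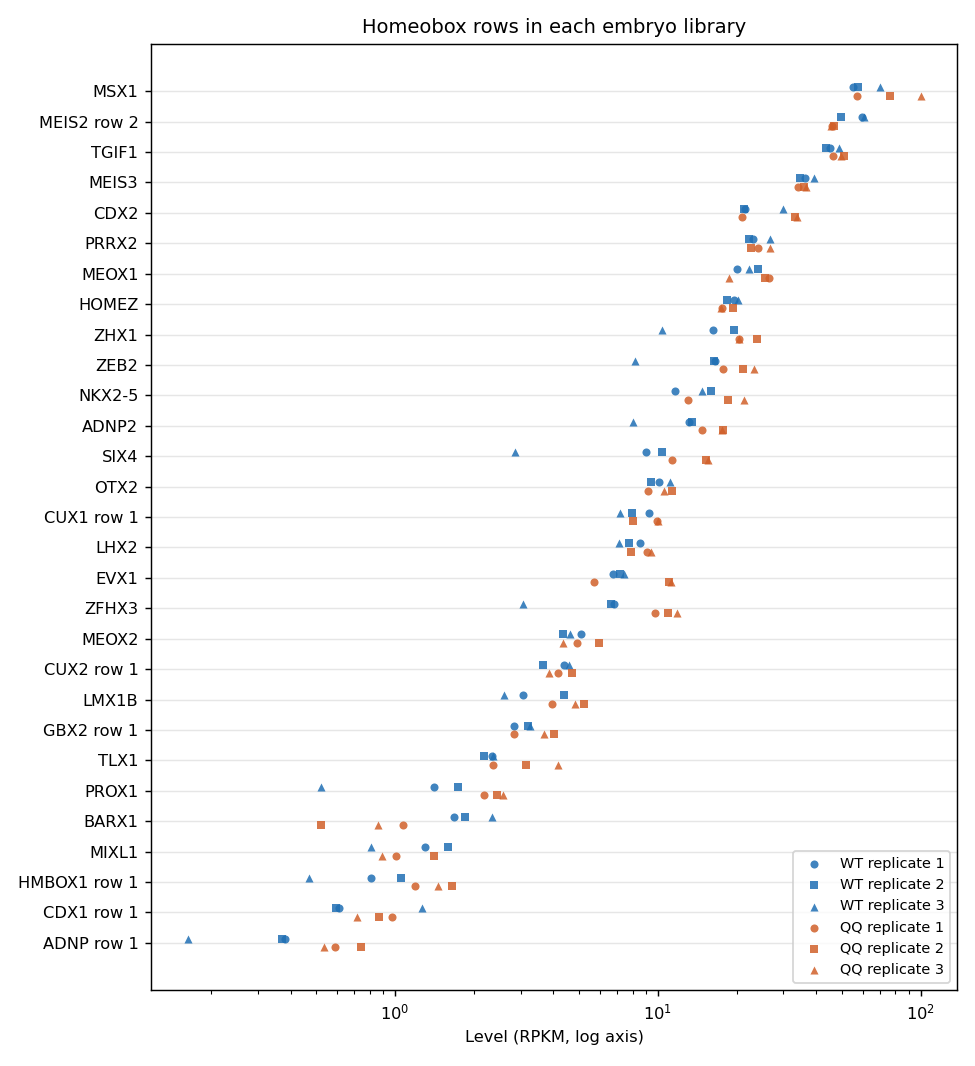
RPKM on a log axis of 29 tested homeobox rows named by a fixed rule, in each of the 6 libraries; blue marks WT, orange QQ, and shapes mark the replicate. MSX1 reaches 100 RPKM in QQ replicate 3, and the triangle of WT replicate 3 lies far to the left of the other WT marks for SIX4, ZFHX3, PROX1, ZEB2 and ADNP row 1.

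Enough reads for a test were found in 72 members, of 67 genes. In the comparison of QQ with WT none of the 72 passed edgeR's quasi-likelihood test at an adjusted p under 0.05, and the smallest adjusted p of a member was 0.233. Over all 13957 tested rows the share called was 0.0% in each direction. At an unadjusted p under 0.05 stood 10 members, 13.9%, against 20.3% of all tested rows. Of these 7 had the higher mean in QQ (all rows: 11.0% higher) and 3 the lower (all rows: 9.29% lower). Leaving out 1 library changed the 10 to between 2 and 13: 2 without QQ replicate 2, 4 without QQ replicate 3 and 13 without WT replicate 2. Without WT replicate 3 there were 6 higher and 1 lower of the 72, against 1198 and 725 of the 13957 rows. For the other fits that lack a library the count over all rows was not taken. DESeq2 called 1 member, ZFHX3, against 0.738% of all rows called higher in QQ, and none called lower, against 0.0573%; at an unadjusted p under 0.05 it had 6 members higher and 2 lower, where all rows had 11.3% higher and 7.85% lower. At the unadjusted threshold of either tool the members' shares were thus not above those of the whole table.

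In sign, 43 of the 72 members had a higher and 29 a lower fitted level in QQ, with a median log2 fold change of 0.078. Over all rows 6935 were higher and 7022 lower, with a median of -0.0027. The split was 44 and 28 with median-ratio scaling of the counts; limma on log2(RPKM + 0.5), which differs from edgeR in model, offset and scaling together, gave 56 higher and 16 lower among the members and 8443 higher and 5514 lower over all rows. The 3 QQ values of RPKM lay wholly above the 3 WT values in 16 members (22.2%) and wholly below in 2 (2.78%), against 18.8% and 9.07% of all tested rows. With counts scaled by TMM, edgeR's factors for library composition, the numbers became 12 and 4, or 16.7% and 5.56% against 15.2% and 14.5% of all tested rows. For comparison, the 32 tested HOX rows had 3 higher and 29 lower values, a median of -0.22 and no call.

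**Figure D2:**
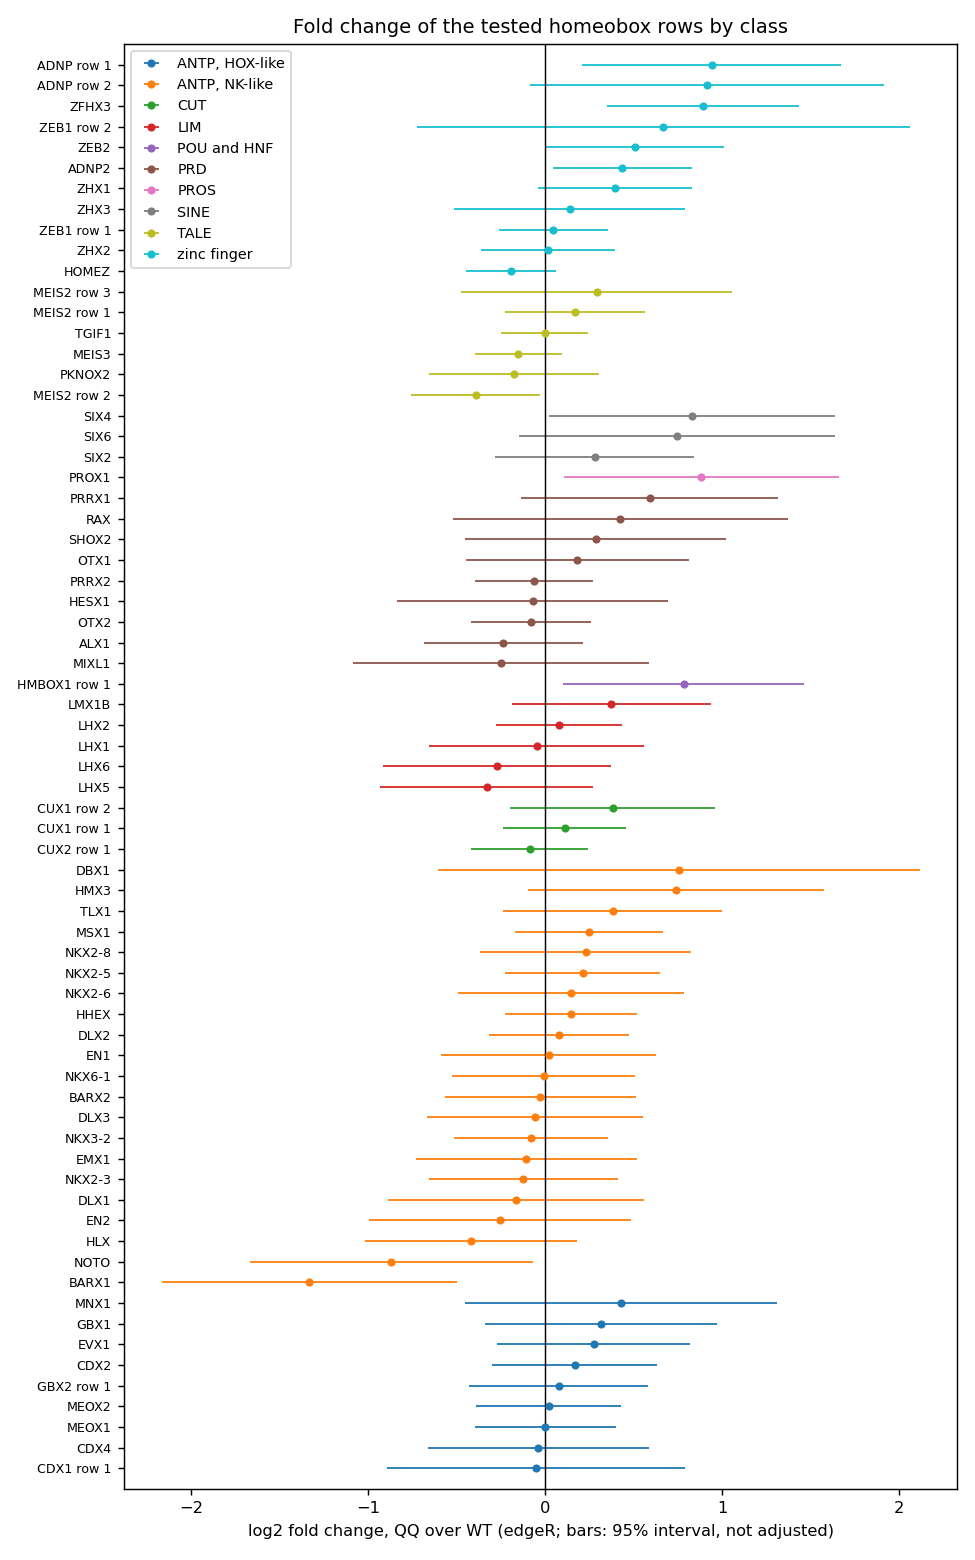
Log2 fold change of QQ over WT for 69 of the 72 tested homeobox rows, grouped and coloured by class, with unadjusted 95% intervals from the edgeR fit. Most intervals include 0, the 11 zinc finger rows lie to the right of 0 apart from HOMEZ, and BARX1 and NOTO lie farthest to the left.

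The zinc finger class held the most members at an unadjusted p under 0.05, 4 rows, all with the higher level in QQ. Its genes join one or more homeodomains to zinc fingers, or are grouped with such genes by their homeodomain, and act mainly as repressors or chromatin regulators expressed in many tissues. Of 11 tested rows 10 had the higher level in QQ, median log2 fold change 0.44, and 1, HOMEZ, the lower. None passed the edgeR threshold. The 11 include second rows of ADNP and ZEB1, and with a mean of at least 1 RPKM required 8 rows remained. Of these 7 were higher and 1 lower, with a median of 0.27. In 10 of these 11 rows WT replicate 3 was the lowest of the 6 libraries. Without WT replicate 3 the numbers were 7 higher and 4 lower with a median of 0.19. With each library's trend over transcript length removed they were 8 and 3 with a median of 0.36. That removal also shifted the whole table, to 5912 rows higher and 8045 lower with a median of -0.071.

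ZFHX3 encodes one of the largest homeodomain proteins, with many zinc fingers, known from neuronal and muscle differentiation. Its row, ENSSSCT00000003049, of 7959 bp, stood at 6.78, 6.62 and 3.06 RPKM in WT and 9.73, 10.9 and 11.8 RPKM in QQ. All QQ values were above all WT values, and WT replicate 3 lay at 0.457 of the mean of WT replicates 1 and 2. The means were 5.49 ± 2.10 RPKM in WT and 10.8 ± 1.05 RPKM in QQ (SD, n = 3). The log2 fold change was 0.89 ± 0.24 (SE; edgeR adjusted p = 0.233), with DESeq2 giving an adjusted p of 0.0377. It came to 0.62 without WT replicate 3 and to 0.68 with the length trend removed. Reads covered 95.3, 95.6 and 85.4% in WT and 98.4, 98.6 and 97.4% in QQ of the transcript, so WT replicate 3 was also the library with the least of it covered.

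ZEB2, a repressor of E-cadherin that acts in neural crest and somite formation, stood at 16.5, 16.3 and 8.16 RPKM in WT and 17.6, 21.1 and 23.2 RPKM in QQ. Its log2 fold change was 0.51 ± 0.22 (SE; edgeR adjusted p = 0.244) and 0.26 without WT replicate 3. For the related ZEB1, the row with the most reads had 11.4, 11.0 and 8.36 RPKM in WT and 10.3, 11.7 and 11.8 RPKM in QQ. Its groups overlapped, and the log2 fold change was 0.047 ± 0.14. ZEB1 row 2, with a mean under 1 RPKM, had 0.67, or 0.17 without WT replicate 3. The 2 rows thus do not give ZEB1 one size of change. ADNP2 stood at 13.2, 13.5 and 8.04 RPKM in WT and 14.7, 17.7 and 17.5 RPKM in QQ, and its log2 fold change was 0.44 ± 0.17 (adjusted p = 0.233) and 0.25 without WT replicate 3. In both ZEB2 and ADNP2 the QQ libraries lay above the WT libraries, but the distance between QQ replicate 1 and the nearest WT library was small beside the gap down to WT replicate 3.

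ADNP, a chromatin remodelling partner needed for neural tube closure in mice, was represented by 3 rows. Row 1 had 24, 24 and 11 reads in WT against 40, 47 and 33 in QQ, and row 2 had 13, 32 and 11 reads in WT against 22, 41 and 48 in QQ. Their log2 fold changes were 0.94 ± 0.33 and 0.91 ± 0.45 (SE; edgeR adjusted p = 0.233 and 0.267). Rows 1 and 2 are 5032 and 5004 bp long and share a protein accession, so how uniquely mapped reads fall between them is uncertain. Reads of row 1 covered 6.84, 6.26 and 4.81% in WT and 6.26, 6.68 and 6.12% in QQ of its length, a small part in every library. Row 3, of 623 bp, had at most 2 reads in a library and was not tested.

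The ZHX genes pair zinc fingers with several homeodomains and repress transcription. ZHX1 had 16.3, 19.5 and 10.4 RPKM in WT and 20.4, 23.9 and 20.3 RPKM in QQ, so the groups did not overlap in RPKM. With counts scaled by TMM, QQ replicate 3 fell below WT replicate 2. The log2 fold change was 0.40 ± 0.19 (edgeR adjusted p = 0.267), or 0.19 without WT replicate 3. The paralogs of ZHX1 did not show this separation in RPKM. ZHX2 had 4.52, 4.18 and 3.78 RPKM in WT and 4.33, 4.07 and 5.04 RPKM in QQ and a log2 fold change of 0.015 ± 0.17, and that of ZHX3 was 0.14 ± 0.29; both turned negative without WT replicate 3, at -0.028 and -0.094. HOMEZ, a broadly expressed gene with leucine zipper motifs, was the exception of the class: it stood at 19.4, 18.3 and 20.2 RPKM in WT and 17.5, 19.2 and 17.3 RPKM in QQ, its highest value was that of WT replicate 3, and its log2 fold change was -0.20 ± 0.11 (95% interval -0.45 to 0.059).

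WT replicate 3 and transcript length moved together with these differences. All 7 members with a higher mean in QQ at an unadjusted p under 0.05 had their lowest value in WT replicate 3 and were 2370 to 7959 bp long. All 3 with a lower mean had their highest value in that library and were 273 to 792 bp long. Over all 13957 tested rows, WT replicate 3 was the lowest library in 41.4% and the highest in 3533. Rows picked as higher in QQ tend to have a WT library lowest, and rows picked as lower tend to have one highest. The share among all rows at the same threshold was not taken. Among the 22 tested members of at least 2500 bp WT replicate 3 was the lowest library in 13, and the median of its level over the mean of WT replicates 1 and 2 was 0.730. Over all 5242 tested rows of that length these were 49.7% and 0.892. Among the 50 shorter members it was lowest in 11, with a median ratio of 1.06, against 36.4% and 0.979 of the 8715 shorter rows. The pattern was not shared by every long member, since CUX2 row 1, of 9060 bp, had its second highest value in WT replicate 3. Without that library the 7 higher members kept a positive log2 fold change of 0.25 to 0.65, in place of 0.44 to 0.94, and with the length trend removed they had 0.35 to 0.83. The 3 lower ones had -1.16 to -0.31 without it.

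**Figure D3:**
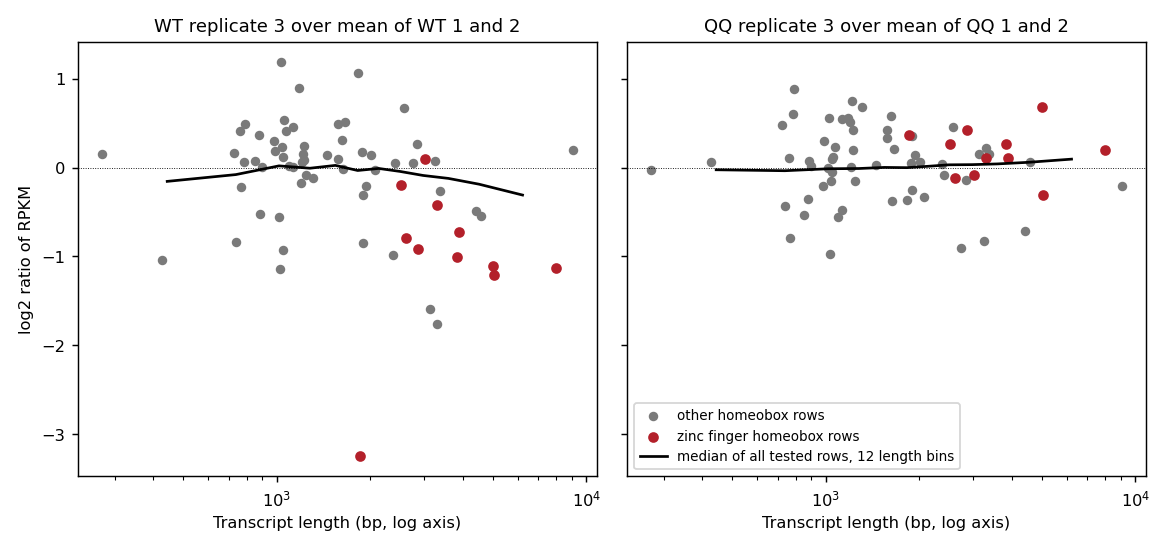
Log2 ratio of the RPKM of WT replicate 3 to the mean of WT replicates 1 and 2 (left) and of QQ replicate 3 to the mean of QQ replicates 1 and 2 (right) against transcript length on a log axis, for 69 of the 72 tested homeobox rows; red marks the zinc finger class and the line is the median of all tested rows in 12 length bins. On the left 10 of 11 zinc finger rows lie below 0, while on the right 8 of 11 lie above it.

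The sine oculis class, with SIX2, SIX4 and SIX6 among its genes, named after a fly eye gene, acts in placodes, muscle precursors, kidney and eye. Of 4 tested rows 3 had the higher level in QQ, these being the genes just named, and none passed. SIX4 stood at 9.01, 10.4 and 2.86 RPKM in WT and 11.3, 15.2 and 15.5 RPKM in QQ. WT replicate 3 was at 0.295 of the mean of the other WT libraries, and the QQ libraries were all above the WT ones. The log2 fold change was 0.83 ± 0.36 (SE; edgeR adjusted p = 0.241), and 0.45 without WT replicate 3.

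SIX2 and SIX6 had few reads. SIX2 had 1.78, 2.51 and 2.15 RPKM in WT and 2.55, 3.00 and 2.82 RPKM in QQ, and SIX6, a gene of eye and pituitary, had 0.911, 0.532 and 0.931 RPKM in WT and 1.01, 2.08 and 1.21 RPKM in QQ, with log2 fold changes of 0.28 ± 0.25 and 0.74 ± 0.40. Their groups did not overlap, and unlike SIX4 their lowest values were not in WT replicate 3.

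PROX1 had its libraries in the same order as SIX4, and HMBOX1 likewise apart from QQ replicates 2 and 3. PROX1, a factor of lymphatic endothelium, liver and lens, stood at 1.41, 1.74 and 0.522 RPKM in WT and 2.18, 2.44 and 2.56 RPKM in QQ, from 55, 70 and 22 reads in WT against 92, 96 and 98 in QQ. Its log2 fold change was 0.88 ± 0.34 (SE; edgeR adjusted p = 0.233), and 0.53 without WT replicate 3. Reads covered 55.8, 68.8 and 29.7% in WT and 78.4, 75.3 and 81.5% in QQ of the transcript. HMBOX1, a homeodomain protein that binds telomere repeats, had 24, 32 and 15 reads in WT against 38, 49 and 42 in QQ on its first row and a log2 fold change of 0.78 ± 0.30 (adjusted p = 0.233), or 0.54 without WT replicate 3. Its second row had at most 8 reads in a library and was not tested, as was PROX2, with at most 5. In both tested rows the QQ libraries lay above all WT libraries and WT replicate 3 was the lowest.

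The HOX-like genes outside the clusters include the caudal genes, which set up the tail end and act on HOX genes, and the somite genes MEOX1 and MEOX2. Of 9 tested rows 7 had the higher and 2 the lower level in QQ, median log2 fold change 0.077, and no call; without QQ replicate 2 these were 4 and 5, with a median of -0.012, and without WT replicate 3 they were 9 and 0, with 0.33. With the length trend removed, where the median over all tested rows was -0.071, 5 were higher and 4 lower. The fit with limma on log2(RPKM + 0.5), where the median over all tested rows was 0.081, had all 9 higher. CDX2, a gene of the tail bud, the hindgut and the trophectoderm, had 21.4, 21.2 and 29.8 RPKM in WT and 20.9, 33.1 and 33.8 RPKM in QQ. WT replicate 3 and QQ replicates 2 and 3 were high and the other three low, so the groups overlapped. The log2 fold change was 0.17 ± 0.21 (SE; edgeR adjusted p = 0.640), and it ranged from 0.057 without QQ replicate 3 to 0.38 without WT replicate 3. The summed level of 6 trophoblast genes, CDX2 among them, was 30.8, 35.7 and 46.2 RPKM in WT and 99.0, 40.9 and 39.3 RPKM in QQ. IFNG alone, the interferon that pig trophoblast releases, made 71.6 RPKM of the sum in QQ replicate 1 and at most 10.3 RPKM in any other library. Without IFNG the sum was 27.5, 26.4 and 35.8 RPKM in WT and 27.4, 38.0 and 39.3 RPKM in QQ, most of it CDX2 itself.

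CDX4, chosen after its values were seen, had 2.50, 4.20 and 4.77 RPKM in WT and 3.02, 4.62 and 4.42 RPKM in QQ, and CDX1, on its first row, 0.613, 0.596 and 1.26 RPKM in WT and 0.974, 0.870 and 0.717 RPKM in QQ. Their log2 fold changes were -0.038 ± 0.28 and -0.052 ± 0.37, and without WT replicate 3, where CDX1 was highest, 0.18 and 0.43. EVX1, a gene of the primitive streak and later of spinal interneurons, stood at 6.74, 7.19 and 7.41 RPKM in WT and 5.70, 11.0 and 11.2 RPKM in QQ. QQ replicates 2 and 3 were above, and QQ replicate 1 below, the 3 closely spaced WT libraries, and the log2 fold change was 0.27 ± 0.24 (adjusted p = 0.509). MNX1, a motor neuron and notochord gene named because its QQ libraries likewise lay on both sides of WT, had 1.25, 1.60 and 1.59 RPKM in WT and 0.916, 2.62 and 2.97 RPKM in QQ and a log2 fold change of 0.43 ± 0.39. With QQ replicate 1 left out EVX1 moved to 0.51 and MNX1 to 0.78; leaving out QQ replicate 3 instead put them at 0.13 and 0.14.

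The somite genes did not differ beyond their spread. MEOX1, needed for sclerotome and vertebral patterning, stood at 19.9, 24.1 and 22.1 RPKM in WT and 26.4, 25.5 and 18.6 RPKM in QQ. Its means were 22.0 ± 2.08 RPKM in WT and 23.5 ± 4.24 RPKM in QQ (SD, n = 3), and the log2 fold change was 0.0012 ± 0.18 with a 95% interval of -0.40 to 0.40. MEOX2, which acts with it in the somite and in limb muscle, had 5.09, 4.35 and 4.62 RPKM in WT and 4.93, 5.98 and 4.34 RPKM in QQ, with 0.020 ± 0.18 as log2 fold change and an interval of -0.39 to 0.43. The intervals leave room for differences of up to 0.40 and 0.43 in log2 units. GBX2, which marks the anterior hindbrain border, had 2.83, 3.20 and 3.27 RPKM in WT and 2.83, 4.02 and 3.68 RPKM in QQ on its first row, with overlapping groups.

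**Figure D4:**
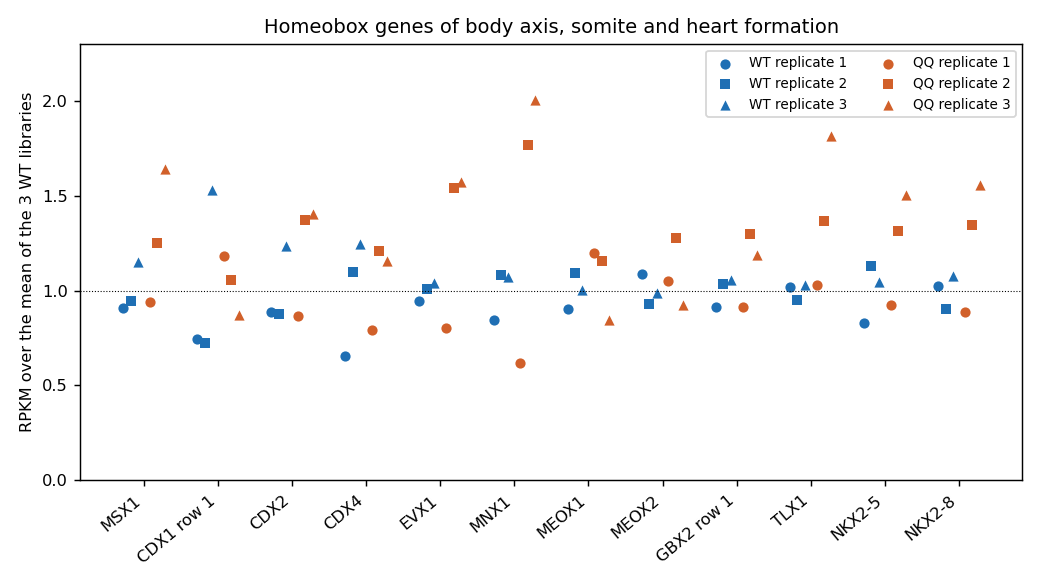
RPKM of 12 homeobox genes of the body axis, somites and heart, each divided by its mean over the 3 WT libraries; blue marks WT, orange QQ, and shapes the replicate. QQ replicates 2 and 3 are the highest for MSX1, CDX2, EVX1, MNX1, GBX2 row 1, TLX1, NKX2-5 and NKX2-8. For these, QQ replicate 1 lies at or below the WT libraries or among them. MEOX1 and MEOX2 scatter about 1.

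The NK-like class, with 32 rows, was the most numerous. It contains the MSX, NKX, DLX, BARX, EN and TLX genes of arches, limbs, heart, gut and nervous system. Of 22 tested rows 11 had the higher and 11 the lower level in QQ, with a median log2 fold change of 0.0057. With limma on log2(RPKM + 0.5), where the median over all tested rows was 0.081, these were 15 and 7. The median was -0.0077 without WT replicate 1, -0.027 without WT replicate 2 and 0.093 without WT replicate 3. MSX1, whose values are given above, had a log2 fold change of 0.25 ± 0.19 (SE; edgeR adjusted p = 0.434), which came to 0.39 without WT replicate 3 and to 0.037 without QQ replicate 3.

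NKX2-5, an early cardiac factor, had 11.6, 15.9 and 14.7 RPKM in WT and 13.0, 18.5 and 21.2 RPKM in QQ. QQ replicates 2 and 3 were highest and WT replicate 1 lowest, with overlapping groups and a log2 fold change of 0.21 ± 0.20 (adjusted p = 0.522), moving to 0.067 when QQ replicate 3 was left out and to 0.36 when QQ replicate 1 was. The summed level of 8 cardiac marker genes was 829, 838 and 1157 RPKM in WT and 849.6, 849 and 696 RPKM in QQ, most of it from the sarcomere genes TNNT2, MYL7 and MYL3, highest in WT replicate 3 and lowest in QQ replicate 3. GATA4, a cardiac transcription factor on that list, had its lowest level in WT replicate 3, 19.0 RPKM, and its highest in QQ replicate 3, 40.8 RPKM, where NKX2-5 was at its highest too. The part of heart cells in the level of NKX2-5 was not tested. TLX1, the spleen factor, had 2.34, 2.18 and 2.37 RPKM in WT and 2.36, 3.14 and 4.17 RPKM in QQ and a log2 fold change of 0.38 ± 0.28. HHEX, which marks anterior endoderm and liver, and HLX, of gut and liver mesenchyme, were picked after their values were seen: HHEX had 8.70, 9.53 and 7.34 RPKM in WT and 8.61, 9.82 and 11.8 RPKM in QQ, and HLX had 7.22, 6.61 and 9.47 RPKM in WT and 6.49, 4.29 and 7.89 RPKM in QQ. Their log2 fold changes were 0.14 ± 0.17 and -0.42 ± 0.27, and in each the groups overlapped.

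BARX1 had the fitted log2 fold change of the largest size among the 72 tested members, without passing the threshold. It is a gene of stomach mesenchyme, jaw and teeth. It gave 16, 18 and 24 reads in WT against 11, 5 and 8 in QQ, which are 1.68, 1.84 and 2.34 RPKM in WT and 1.07, 0.522 and 0.860 RPKM in QQ. All WT libraries lay above all QQ libraries. The means were 1.95 ± 0.345 RPKM in WT and 0.817 ± 0.277 RPKM in QQ (SD, n = 3), and the log2 fold change was -1.33 ± 0.37 (SE; edgeR adjusted p = 0.233), or -1.16 without WT replicate 3. DESeq2 gave no adjusted p for it.

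NOTO, a notochord gene, was named after its values were seen. It had 24, 19 and 32 reads in WT against 10, 13 and 20 in QQ, and QQ replicate 3 was above WT replicate 2. Its log2 fold change was -0.87 ± 0.36 (adjusted p = 0.233), or -0.66 without WT replicate 3. The sclerotome gene NKX3-2, chosen likewise, had 2.76, 2.90 and 3.40 RPKM in WT and 3.39, 2.91 and 2.85 RPKM in QQ. Its groups overlapped, and the log2 fold change was -0.081 ± 0.19. The neighbouring genes DLX1 and DLX2, of arches and forebrain, had 2.92, 2.03 and 2.13 RPKM in WT and 2.80, 2.38 and 1.49 RPKM in QQ for DLX1 and 2.73, 2.66 and 2.78 RPKM in WT and 2.93, 3.34 and 2.96 RPKM in QQ for DLX2. Their log2 ratio, from TMM-scaled counts per 1000000 reads plus 0.5, was -1.63 in WT and -1.85 in QQ (exact two-sided permutation p = 0.4, where 3 against 3 can give no less than 0.1; adjusted p = 0.6 over 3 neighbouring pairs). Of 8 muscle marker genes listed 3 had a row, and MYOD1 and CHRND had at most 2 reads in a library. The third, DES, an intermediate filament gene of skeletal, heart and smooth muscle, had 78.9, 81.9 and 92.7 RPKM in WT and 76.5, 64.1 and 58.2 RPKM in QQ and was lower in every QQ than in every WT library, with a log2 fold change of -0.44 ± 0.15 (adjusted p = 0.233). Its part in these values was not tested.

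The paired class holds genes of eye, brain, face, limb and gonad, most of them scarcely read in these embryos: of 29 rows 10 were tested. Of these 4 had the higher and 6 the lower level in QQ, with a median log2 fold change of -0.051. With limma on log2(RPKM + 0.5), where the median over all tested rows was 0.081, these were 8 and 2. Without WT replicate 3, QQ replicate 1 or QQ replicate 2 the median was 0.028, 0.065 or 0.0050. OTX2, of forebrain and midbrain, stood at 10.1, 9.45 and 11.1 RPKM in WT and 9.15, 11.3 and 10.6 RPKM in QQ, with overlapping groups and a log2 fold change of -0.080 ± 0.15. For PRRX2 the log2 fold change was -0.063 ± 0.15.

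MIXL1, a gene of the primitive streak, was near the limit of testing, with 12, 15 and 8 reads in WT against 10, 13 and 8 in QQ and a log2 fold change of -0.25 ± 0.37. PRRX1, a limb mesenchyme gene related to PRRX2, was singled out afterwards because its groups did not overlap: its row of 426 bp had 16, 19 and 9 reads in WT against 23, 24 and 23 in QQ, with WT replicate 3 lowest, and a log2 fold change of 0.59 ± 0.32, or 0.33 without that library. GSC, a gene of the organizer, had 4, 6 and 1 reads in WT against 2, 2 and 5 in QQ and was too low to test.

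The LIM class pairs the homeodomain with LIM zinc-binding domains. Of 5 tested rows 2 were higher and 3 lower in QQ, with a median log2 fold change of -0.049, or 0.040 without QQ replicate 3. LHX2, of eye and forebrain, had 8.54, 7.79 and 7.10 RPKM in WT and 9.09, 7.87 and 9.37 RPKM in QQ and a log2 fold change of 0.078 ± 0.16. LMX1B, which specifies the dorsal side of the limb, had 3.08, 4.40 and 2.60 RPKM in WT and 3.94, 5.21 and 4.81 RPKM in QQ and a log2 fold change of 0.37 ± 0.25 (adjusted p = 0.386). In both the groups overlapped, and in both WT replicate 3 was the lowest library.

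The TALE class contains proteins that bind DNA together with HOX proteins. Of 6 tested rows 2 had the higher and 4 the lower level in QQ, with a median log2 fold change of -0.077. With median-ratio scaling, DESeq2 or limma these were 3 and 3. MEIS2 had 3 tested rows. Row 2, a fragment of 273 bp, had 59.5, 49.6 and 60.7 RPKM in WT and 45.9, 46.9 and 45.6 RPKM in QQ, with all WT libraries above all QQ libraries and a log2 fold change of -0.39 ± 0.16 (SE; edgeR adjusted p = 0.234). Row 1, of 4564 bp, had 3.23, 3.31 and 2.23 RPKM in WT and 3.43, 3.47 and 3.61 RPKM in QQ, with the order of the groups in RPKM turned round. With counts scaled by TMM the groups overlapped, as QQ replicate 2 fell below WT replicate 2. The log2 fold change of row 1 was 0.17 ± 0.18. Row 3, of 1047 bp, had a log2 fold change of 0.29 ± 0.34 and overlapping groups. Without WT replicate 3 the values of rows 1 to 3 were 0.026, -0.31 and 0.058, so the rows do not give MEIS2 one direction.

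TGIF1 and MEIS3 had narrow intervals around small differences. TGIF1 had -0.0031 ± 0.11 as its log2 fold change and a 95% interval of -0.25 to 0.24, and MEIS3 had -0.15 ± 0.11 with an interval of -0.39 to 0.093. The CUT class, with 3 tested rows, had 2 higher and 1 lower in QQ. CUX1, a repressor found in most tissues, had 9.24, 7.95 and 7.17 RPKM in WT and 9.93, 8.05 and 10.02 RPKM in QQ on its first row. CUX2, a neuronal and limb paralog, had 4.38, 3.65 and 4.60 RPKM in WT and 4.17, 4.71 and 3.85 RPKM in QQ on its own. Their log2 fold changes were 0.11 ± 0.16 and -0.088 ± 0.15, and in both the groups overlapped.

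The 45 members that were not tested had at most 14 reads in any library, and 25 of them had at most 3 reads in every library. They were spread unevenly: 19 of the 29 paired rows, 10 of the 32 NK-like rows and 5 of the 14 HOX-like rows, but none of the 4 sine oculis rows. They include genes that are known for later or smaller structures, such as PDX1 of the pancreas, with 6, 11 and 4 reads in WT against 12, 4 and 0 in QQ, and VSX1 and CRX of the retina, with at most 4 reads in a library. Differences in these genes could not be detected at this depth. The members that passed the filter on reads are therefore not all homeobox genes of the embryo.

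Homeodomain genes whose description lacks the word homeobox give a further view of the family. Of 52 homeodomain genes listed, 11 were already members by their description, 15 others had a row and 11 of these were tested. In QQ 9 had the higher and 2 the lower level, with a median log2 fold change of 0.30, or 0.14 without WT replicate 3, none passed, and in 8 WT replicate 3 was the lowest library. POU3F1, a neural POU factor, had 14, 12 and 9 reads in WT against 18, 15 and 24 in QQ and a log2 fold change of 0.62 ± 0.34. ISL1, of motor neurons and the second heart field, had 11.0, 12.6 and 10.6 RPKM in WT and 11.7, 14.4 and 14.2 RPKM in QQ, and SATB1, a chromatin organizer, had -0.029 ± 0.13 as its log2 fold change. In ISL1 and SATB1 the groups overlapped.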

How the data were processed

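RNA of 3 WT and 3 QQ embryos, isolated with Trizol, was made into TruSeq libraries, per the labels' protocols. Reads were placed on Sscrofa 10.2, per the submitters' processing notes; the sources used here name neither aligner nor counting program nor the use of strand, so antisense reads cannot be told apart. One table holds, per the file headers, for each library and Ensembl transcript the deposited count of uniquely mapped reads, the percent of the transcript covered and the RPKM, with the transcript length in bp (the authors' deposited values). A dash stands for 0; with that, counts add up to the totals in the headers, and the RPKM follow from counts, lengths and totals to a relative gap of 1.29e-07. Library totals were 12.2 to 13.5 times 1000000 reads.

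Members were found by their description, and 51 of 117 had a pig protein accession in the RefSeq table of Sscrofa11.1, with the same symbol in all 51; positions were used for neighbours only. The 2 rows of which the description and the deposited KEGG gene disagree, MSX3 and ZFHX2, were not tested. A gene with several rows is numbered by reads ("row 1" has the most), and 9 names had 21 rows. All rows were fitted with edgeR 4.0.16 (R 4.3.3): TMM factors of 0.933 to 1.06, the default filter (minimum count 10, minimum total 15), quasi-likelihood tests without covariates, and Benjamini-Hochberg adjustment over all 13957 tested rows at 0.05. The SE is the log2 fold change over the square root of F. Tests were checked on simulated counts with the same spread for all rows and no outlying library. That check does not cover a library like WT replicate 3. DESeq2 1.42.0 and limma 3.58.1 on log2(RPKM + 0.5) were alternatives, as were median-ratio scaling, other filters, fits without 1 library, a block for the replicate number and a threshold of 0.1; removal of the length trend (loess, span 0.4) was added after seeing the data. Replicate pairs differed beyond sampling noise (chi-square over degrees of freedom of 8.13 to 27.9).

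The members and lists were chosen with earlier results of these data known. Named were the 10 members with the highest mean RPKM, those at an unadjusted p under 0.05 with groups that do not overlap, the 2 highest of each class, and 16 developmental genes (UNCX, NANOG and MSX2 matched no member row); of other homeodomain genes, the 2 with the smallest p and the 4 with the highest level. Some genes are not reported here, though they remain in the counts. All other members with values, such as ZEB1, ZHX2, ZHX3, SIX2, SIX6, DLX1, DLX2, PDX1 and the further rows of ADNP and MEIS2, were chosen after their values were seen. Marker lists were summed over the rows found: 11 of 12 erythroid, 8 of 10 endoderm, 8 of 12 cardiac, 3 of 8 muscle, 6 of 10 trophoblast and 4 of 12 neural genes. Figures were drawn with matplotlib 3.10.9. No sequences are printed.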

Additional observations from a re-analysis of the deposited data

How the results depend on the processing

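No homeobox row passed an adjusted p of 0.05 under any edgeR or limma setting tried, without any single library, or at a threshold of 0.1 with the first settings; DESeq2 called 1. The count at an unadjusted p under 0.05, 10 at first, was 8 to 14 under other settings with all libraries. It was 2 to 13 with a library left out, with 2 without QQ replicate 2, 4 without QQ replicate 3 and 13 without WT replicate 2. The median log2 fold change of 0.0783 became 0.1341 with no filter (117 rows) and 0.1541 with limma on log2(RPKM + 0.5), and was 0.0594 to 0.0966 with a library left out. The limma fit also moved the median over all tested rows, from -0.0027 to 0.0807. Of 375 values of 29 named rows under other settings, 346 kept their direction and side of the threshold, 1 newly passed (ZFHX3 in DESeq2) and 28 changed sign, in 8 rows whose first value was at most 0.0883 in size; the cause was not tested. With limma the sign changed for TGIF1 (0.0954), CUX2 row 1 (0.0108), PRRX2 (0.0362), OTX2 (0.0183) and CDX1 row 1 (0.0644). All but TGIF1 lay below that fit's median of 0.0807 over all tested rows. TGIF1 also changed under median-ratio scaling (0.0042), a minimum of 1 RPKM (0.0023) and DESeq2 (0.0042). MEOX1 changed with no filter (-0.0034) and with the length trend removed (-0.02), as did MEOX2 with the latter (-0.0022). In that last setting the median over all tested rows was itself -0.071. With a library left out the ranges were -0.0546 to 0.0710 for TGIF1, -0.1938 to 0.0058 for CUX2 row 1, -0.1296 to 0.1504 for MEOX1, -0.1290 to 0.0489 for PRRX2, -0.1460 to 0.0081 for OTX2, -0.0881 to 0.1277 for MEOX2, -0.0120 to 0.1814 for GBX2 row 1 and -0.2527 to 0.4274 for CDX1 row 1.

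Whether the replicate numbers pair the samples cannot be told from these data. The deviations from the group means of same-numbered libraries correlated at -0.191, 0.213 and -0.056, and those of differently numbered ones at -0.17 to 0.221. Deviations from a mean of 3 libraries depend on each other, so these values do not settle it. With the number as a block no row was called, 11 stood at an unadjusted p under 0.05 and the median was 0.0765; under this replicate block TGIF1 (0.0007), MEOX1 (-0.0135) and CDX1 row 1 (0.0024) changed sign. Depth limits what can be said of the 45 untested rows and of rows such as BARX1 and MIXL1, with 5 to 24 reads in a library.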
